A study of Mus musculus with 6 samples.

Results

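Ribosomal protein genes are the genes of the cytoplasmic ribosome's protein parts. Here they are the 35 mouse genes, of 8251 with a probe set of a single symbol on the array, whose symbol marks a protein of the large subunit (Rpl followed by a number, or Rplp; 17 genes) or of the small subunit (Rps followed by a number, or Rpsa; 18 genes). Kinases with Rps6k symbols were left out, and the probe set with the highest mean signal stood for each gene. Total RNA of C2AS12 cells, a line derived from mouse C2 myoblasts (muscle precursor cells), was hybridised to 6 oligonucleotide arrays. The cells were infected with adenovirus carrying p300, a coactivator of transcription that acetylates histones, in 3 ways: wild-type p300 in the presence of doxycycline, mutant p300, and wild-type p300 without doxycycline. Each was measured after 24 h in low-serum differentiation medium and at 0 h, before that medium was added, on 1 array per treatment at each time. The series description names apoptotic death as the outcome with doxycycline and with mutant p300, and survival with wild-type p300 without doxycycline. All arrays hold infected cells. An uninfected culture, or one kept for 24 h without the medium change, was not analysed here. Which mutation p300 carries and how doxycycline acts here are not stated in the labels, and p300 itself (Ep300) had no probe set of a single symbol, so its level could not check the labels.

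A ribosome joins a small subunit, which reads the mRNA, to a large subunit, which forms the peptide bonds, and nearly every protein of both is needed in equal number in each ribosome. The mRNAs of these proteins are abundant in growing cells and begin with a C followed by a run of pyrimidines, the 5′ terminal oligopyrimidine (TOP) motif, through which growth signals acting by mTOR control how well they are translated. Much of their control therefore lies in translation, which arrays of total RNA do not measure. In muscle precursors, withdrawal of serum stops the cell cycle and starts fusion into muscle fibres, and ribosome production is known to adjust with it.

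Of the 35 genes, 24 (12 large and 12 small) were bright enough to be tested, with a mean signal of at least 75.2 linear array units (the median of all probe sets). They were tested among 6212 probe sets. Their mean signals lay between 89.7 and 10724, and 19 exceeded 1000. The arrays had median signals of 68.7 to 78.05. The ratio of 3′ to 5′ actin signal, a sign of RNA integrity and labelling, was 1.45 with doxycycline, 1.49 with mutant p300 and 1.33 with wild-type p300 at 24 h, against 1.30, 1.34 and 1.33 at 0 h. Of 8 myoblast markers, 7 were tested and Myog, Chrna1, Itga7 and Des rose over 24 h, beside 7.24% of all probe sets. Cdh15, Myod1 and Myf5 were not called, with log2 changes of 0.62, 0.06 and -0.13, and Mef2c was not tested. The 7 macrophage and leukocyte markers summed to between 497.1 and 592.4 at 24 h and between 582.2 and 686.2 at 0 h. Cd14 and Cd68 among them were bright enough to be tested, with mean signals of 375.8 and 137.1, and neither was called. Csf1r, with a mean of 52.7, was not tested. Adgre1, Itgam, Ptprc and Lyz2 lay under the floor of 16.4 on every array. Of 5 endothelial, 5 epithelial and 3 adipocyte markers on the array, Cdh1 alone was bright enough to be tested. In bulk RNA, fewer cells of a kind and less RNA per cell cannot be told apart.

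The first comparison set 24 h against 0 h across the 3 treatments. The median change of the 24 tested genes was -0.16 on the log2 scale, beside 0.005 for all probe sets tested, and the mean change was negative in 21 of 24. By treatment the median was -0.29 with doxycycline, -0.21 with wild-type p300 and 0.02 with mutant p300. With quantile normalization the median over the treatments was -0.05, beside 0.02 for all probe sets. Rpsa, Rps19 and Rpl13a fell by limma at an adjusted p under 0.05, and 0 genes rose. That is 3 of 24, beside 9% of all probe sets that fell and 7.24% that rose. In 8 of 24 genes every 24 h array lay below every 0 h array, beside 15.5% of all probe sets. These were the 3 genes that fell and Rpl6, Rpl7l1, Rpl8, Rps3 and Rps10. In the other 16 the times overlapped.

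**Figure D1:**
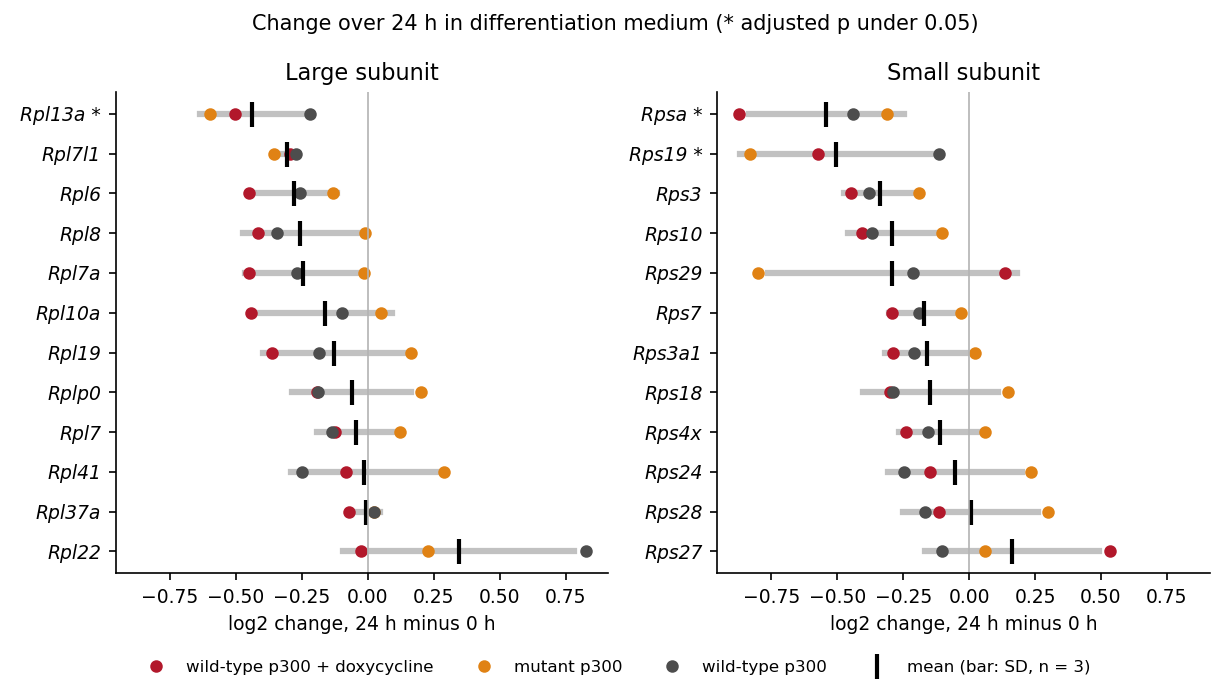
Change in log2 signal, 24 h minus 0 h, for each of the 24 tested genes, in panels by subunit. Points are the 3 treatments, the black tick is their mean and the grey bar their SD (n = 3); an asterisk marks the 3 genes with an adjusted p under 0.05, and the orange points of mutant p300 lie to the right of the other 2 in most genes.

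Rpsa encodes a small subunit protein also known as the laminin receptor, and it had the largest change of the 24 tested genes. Its signal at 24 h was 1020 with doxycycline, 1438 with mutant p300 and 1307 with wild-type p300, against 1865, 1784 and 1773 in the same order at 0 h. The times did not overlap, and the doxycycline array at 24 h was the lowest. The mean change was -0.54 ± 0.29 on the log2 scale (SD over the 3 treatments, n = 3), or -31.3%, with a limma adjusted p of 0.0178.

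Rps19 encodes a small subunit protein needed to mature 18S rRNA and is the gene most often mutated in human Diamond-Blackfan anaemia, a red cell disorder of ribosome production. Its signal at 24 h was 2131 with doxycycline, 1969 with mutant p300 and 2567 with wild-type p300, against 3168, 3500 and 2781 at 0 h. The doxycycline and mutant p300 arrays were lowest at 24 h and highest at 0 h, with both wild-type arrays between them. The mean change was -0.51 ± 0.36 (SD, n = 3), with a limma adjusted p of 0.0391.

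Rpl13a encodes a large subunit protein that in human monocytes can also leave the ribosome and silence inflammatory mRNAs. Its signal at 24 h was 639.3 with doxycycline, 639.5 with mutant p300 and 774.6 with wild-type p300, against 906.4, 966.9 and 902.2 at 0 h. The times did not overlap, and wild-type p300 was the highest of the 24 h arrays. The mean change was -0.44 ± 0.20 (SD, n = 3), with a limma adjusted p of 0.0222.

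**Figure D2:**
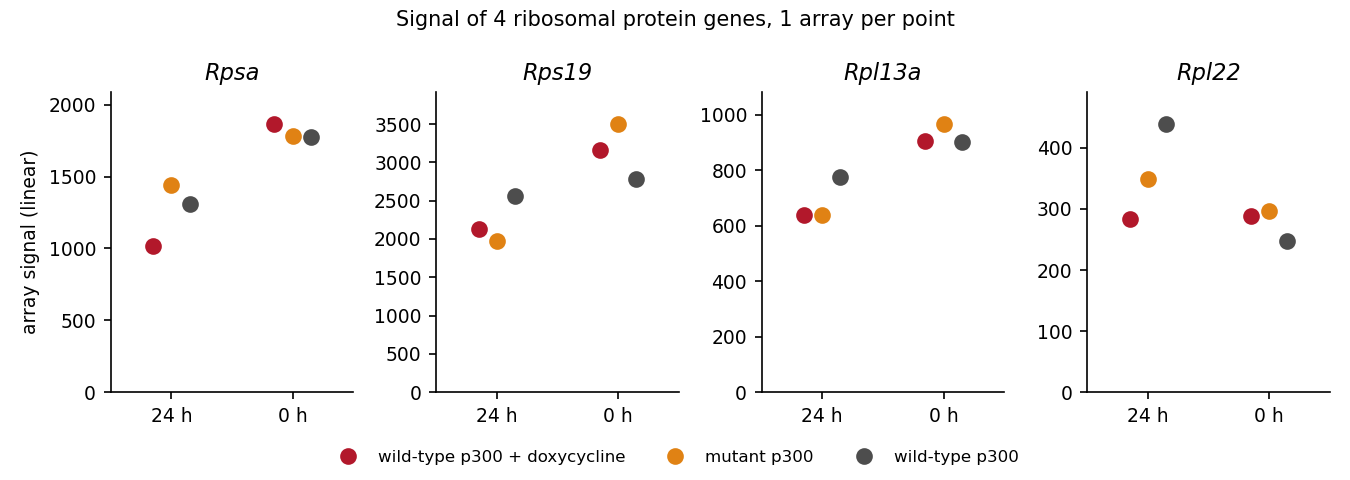
Linear array signal of Rpsa, Rps19, Rpl13a and Rpl22 at 24 h (left) and 0 h (right), 1 array per point, coloured by treatment. Rpsa, Rps19 and Rpl13a are lower on all 24 h arrays, while Rpl22 is highest in the wild-type p300 array at 24 h.

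These 3 calls rest on few arrays. Because treatment was a block, leaving out either array of a treatment takes that whole treatment out of the change over 24 h. When 1 of the 2 doxycycline arrays was left out, whichever it was, limma called 0 of the 24 genes (4 had an unadjusted p under 0.05), beside 4.89% to 4.96% of all probe sets that fell. When 1 of the 2 arrays of mutant p300 was left out it called 5, which were Rpl8, Rps10, Rps18, Rps3 and Rpsa, as lower, beside 4.72% to 4.91% of all probe sets. When 1 of the 2 wild-type arrays was left out it called the same 3, beside 10.7%. No call remained without the filter on dim probe sets (0 of 35 called, 4 at an unadjusted p under 0.05; of all 12422 probe sets, 0 called and 2030) or without a variance trend (0 of 24 called, 6 at an unadjusted p under 0.05; of all 6212, 6.31% fell and 1830 had an unadjusted p under 0.05). The median change of the family was -0.05 with quantile normalization, -0.28 with scaling to the spike-in controls (all probe sets -0.12), -0.08 with 1 doxycycline array left out and -0.26 with 1 array of mutant p300 left out.

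Among the other small subunit genes, Rps3, whose protein sits where mRNA enters the ribosome, came closest to a call. Its signal at 24 h was 3059 with doxycycline, 3718 with mutant p300 and 3289 with wild-type p300, against 4168, 4239 and 4283 at 0 h. The 0 h arrays lay close together and above all 24 h arrays. The mean change was -0.34 ± 0.13 (SD, n = 3), with a limma adjusted p of 0.0552.
Rps10, a protein of the small subunit's head, had a mean change of -0.29 ± 0.16 (adjusted p = 0.102), with signals of 3596 to 4361 at 24 h and 4689 to 5109 at 0 h. Rps29, a small zinc-binding protein of the same region, had a mean change of -0.29 ± 0.47. It was among the dimmest tested genes, at 115.0 with doxycycline, 73.7 with mutant p300 and 104.2 with wild-type p300 at 24 h, against 104.7, 128.2 and 120.8 at 0 h. Only the array of mutant p300 at 24 h stood clearly below the rest.

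Among large subunit genes, Rpl6 had a mean change of -0.28 ± 0.16 and Rpl8, whose protein lies near the peptidyl transferase centre, of -0.26 ± 0.22 (adjusted p = 0.108 and 0.186). In both, every 24 h array lay below every 0 h array, for Rpl8 with 5407 to 6779 at 24 h and 6827 to 7374 at 0 h. Rpl7l1, a paralog of Rpl7, had a change of -0.31 ± 0.04, at a low signal of 77.5 to 83.2 at 24 h and 93.5 to 106.5 at 0 h (adjusted p = 0.299). Rplp0, the base of the stalk that binds translation factors, had 7330, 8753 and 7282 at 24 h with doxycycline, mutant p300 and wild-type p300, against 8376, 7615 and 8291 at 0 h. Its times overlapped, since mutant p300 had the highest of the 24 h arrays and the lowest of the 0 h arrays. Its mean change was -0.06 ± 0.23 (adjusted p = 0.797), and it was the only stalk protein with a probe set of a single symbol.

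Rpl22, a large subunit protein that mouse cells can do without for general translation, had the highest change of the tested genes. Its signal at 24 h was 283.0 with doxycycline, 348.5 with mutant p300 and 439.0 with wild-type p300, against 287.7, 297.1 and 247.4 at 0 h. The wild-type array was the highest at 24 h and the lowest at 0 h, and the times overlapped. The mean change was 0.34 ± 0.44 (SD, n = 3; adjusted p = 0.181). A dimmer probe set of Rpl22, with signals of 40.2 to 115.0, changed by -0.41 ± 0.77, so the 2 probe sets of this gene disagreed in sign. Rpl10a, with -0.16 in both of its tested probe sets, and Rps28, with 0.01 and -0.08, differed less.

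The median change over 24 h was negative with doxycycline and with wild-type p300 and near 0 with mutant p300. With doxycycline it was -0.29 on the log2 scale, with 22 of 24 genes lower, and with wild-type p300 it was -0.21, also with 22 of 24 lower. With mutant p300 it was 0.02, with 11 of 24 lower. The medians over all probe sets tested were 0.03 with doxycycline, -0.003 with mutant p300 and -0.02 with wild-type p300. Of the 19 genes with a mean signal over 1000, 0 were higher at 24 h with doxycycline, 11 with mutant p300 and 1 with wild-type p300. The 24 genes held 2.75%, 3.14% and 2.79% of all signal at 24 h with doxycycline, mutant p300 and wild-type p300, against 3.22%, 3.05% and 3.15% at 0 h. The 9 spike-in controls are probe sets of the Bio and Cre control RNAs, which are added at hybridisation and not to the total RNA. They deviated by 0.13, 0.23 and -0.18 from their mean over the arrays at 24 h, and by -0.02, -0.13 and -0.03 at 0 h. Among the 24 h arrays, that of mutant p300 was the highest both for the spike-in controls and for the median ribosomal protein gene, and it had the highest ratio of 3′ to 5′ actin. The part of these measures in the result was not tested. Each treatment has a single array at each time, so the difference between treatments has no replicate.

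**Figure D3:**
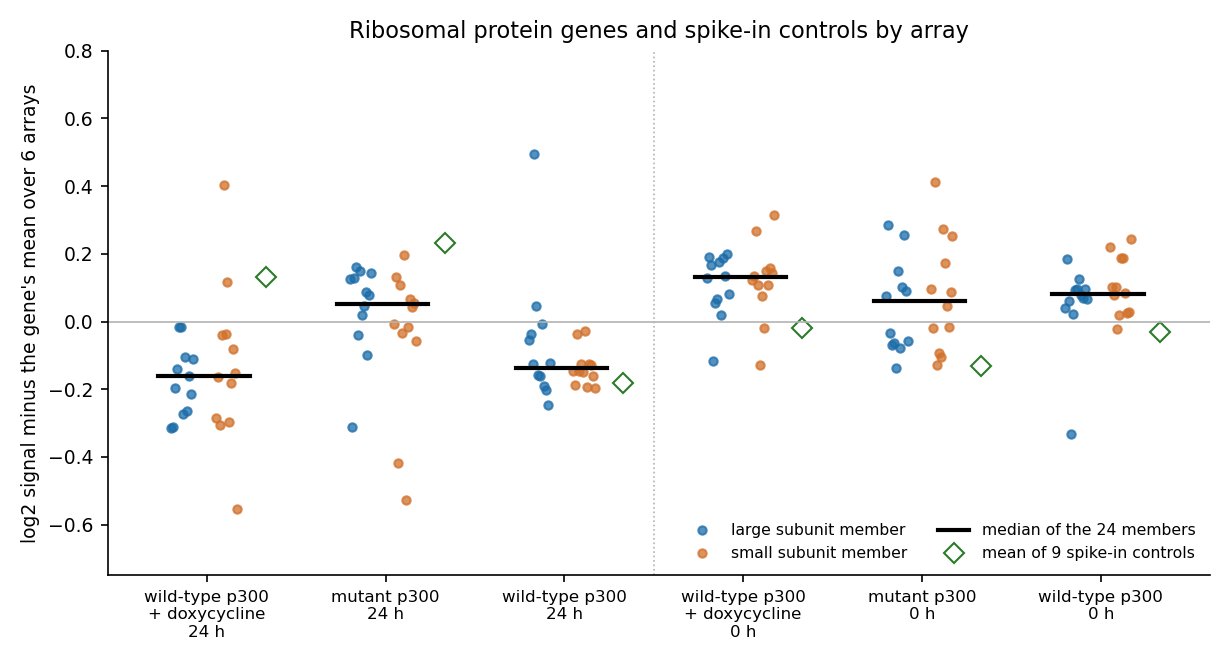
Log2 signal of each tested gene minus its own mean over the 6 arrays, by array, with the 24 h arrays on the left and the 0 h arrays on the right. Blue and orange points are large and small subunit genes, black lines their joint median (-0.16, 0.05 and -0.14 at 24 h; 0.13, 0.06 and 0.08 at 0 h) and green diamonds the mean of 9 spike-in controls.

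The second comparison set the 2 arrays of dying cells (doxycycline and mutant p300) against the array of surviving cells (wild-type p300) at 24 h. Limma called 0 of 24 genes, beside 0.773% of all probe sets, and 1 gene had an unadjusted p under 0.05, beside 11.5% of all probe sets. The median difference was 0.07 on the log2 scale, beside 0.04 for all probe sets tested. The 2 arrays of dying cells did not lie on the same side of wild-type p300. Mutant p300 minus wild-type p300 had a median of 0.18, with 19 of 24 genes higher, while doxycycline minus wild-type p300 had a median of -0.06, with 11 of 24 higher. These 2 differences share the wild-type array. Over all probe sets their medians were 0.04 and 0.06.

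Rpl22 was the gene with an unadjusted p under 0.05. With the signals given above, both arrays of dying cells lay below wild-type p300 at 24 h, by -0.63 with doxycycline and -0.33 with mutant p300, a mean of -0.48 ± 0.21 (limma SE; adjusted p = 0.418). Rps19 differed by -0.33 ± 0.16 (adjusted p = 0.5) and Rpl13a by -0.28 ± 0.16 (adjusted p = 0.581), and in both genes both arrays of dying cells were lower than wild-type p300. Rps29 (-0.18 ± 0.36) and Rpsa (-0.11 ± 0.21) completed the 5 lowest, with the arrays of dying cells on opposite sides of wild-type p300. In the dimmer probe set of Rpl22 doxycycline lay 0.29 above wild-type p300 and mutant p300 differed by -1.12, a mean of -0.41. When the arrays were scaled to the spike-in controls, which lowered the median of all probe sets to -0.32, Rpl22 and Rps19 passed the test, with adjusted p of 0.0434 and 0.0136, as 2 of 24 genes that were lower, beside 6.76% of all probe sets.

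Rps27, a zinc-binding small subunit protein, was at the other end. Its signal at 24 h was 443.8 with doxycycline and 328.0 with mutant p300, against 307.8 with wild-type p300, and at 0 h it was 306.8, 314.8 and 330.6. The doxycycline array at 24 h stood apart and the other 5 lay close together. The difference at 24 h was 0.31 ± 0.22 (limma SE; adjusted p = 0.676). It was followed by Rps28 (0.23 ± 0.18), Rpl41, the shortest ribosomal protein (0.22 ± 0.18), Rps24 (0.18 ± 0.18) and Rpl8 (0.18 ± 0.18), all with adjusted p of at least 0.71. In these 4 genes the array of mutant p300 was the highest of the 3 at 24 h. Rpl41, Rps24 and Rps28 were read by probe sets whose names mark possible cross-hybridisation. The other tested probe set of Rps28, whose name lacks such a mark, had a smaller mean difference of 0.14. In it mutant p300 lay 0.31 above wild-type p300 and doxycycline differed by -0.03.

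**Figure D4:**
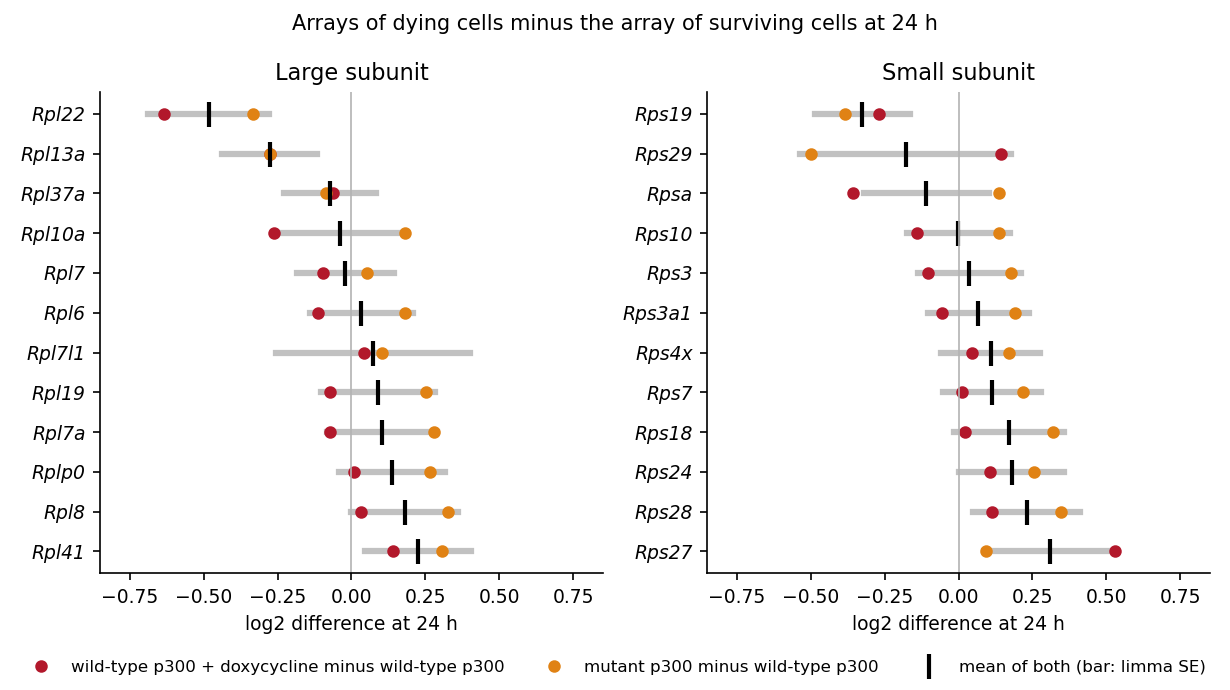
Log2 difference at 24 h from the array of wild-type p300, for doxycycline (red) and mutant p300 (orange), for each tested gene by subunit; the tick is the mean of both and the grey bar its limma SE. Both points lie left of 0 for Rpl22, Rpl13a, Rpl37a and Rps19, and in most other genes the orange point lies right of the red one.

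At 0 h limma called 0 of 24 genes, beside 0% of all probe sets, and 0 had an unadjusted p under 0.05, beside 4.22%. The median difference there, of the mean of doxycycline and mutant p300 minus wild-type p300, was -0.0006. The interaction, which asks whether the change over 24 h differed between the outcomes, called 0 of 24, beside 0%, and 2 genes had an unadjusted p under 0.05, beside 3.17% of all probe sets. They were Rpl22, with -0.72 ± 0.29 (limma SE; adjusted p = 1), and Rps19, with -0.59 ± 0.23 (adjusted p = 1). The dimmer probe set of Rpl22 had an interaction of -0.03. Rpl13a, at -0.33 ± 0.23, was the third lowest of the 24 genes. Rps27 (0.40 ± 0.32), Rpl41 (0.35 ± 0.25) and Rps24 (0.29 ± 0.25) were the 3 highest. Over both times together limma called 0 of 24 genes, beside 0.531%, with 0 at an unadjusted p under 0.05, beside 13.7%. The median there was 0.04. Neither the interaction nor the fit over both times paired the 2 arrays of a treatment, so their p-values and SE take these arrays as independent.

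The median change over 24 h was -0.15 in 12 large subunit genes, of which 1 fell, and -0.17 in 12 small subunit genes, of which 2 fell. Of all probe sets tested, 9% fell. Within treatments the large subunit median minus the small subunit median was -0.04 with doxycycline, 0.04 with mutant p300 and 0.007 with wild-type p300. At 24 h the difference of dying minus surviving cells had a median of 0.05 in large and 0.09 in small subunit genes. Single genes ranged over time between -0.44 and 0.34 in the large and between -0.54 and 0.16 in the small subunit.

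The sequence around the annotated start of transcription is shown for the 3 genes that fell and for the 5 tested genes that have a run of at least 5 C or T bases across the start. Each is 15 bases before and 15 from the annotated start on, 5′ to 3′ on the gene's strand, with that run in capitals (RefSeq, GRCm38.p6).
Rpsa (chr9:120127751-120127780, plus strand): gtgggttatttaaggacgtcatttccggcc
Rps19 (chr7:24884577-24884606, plus strand): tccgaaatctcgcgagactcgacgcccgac
Rpl13a (chr7:45128731-45128760, minus strand): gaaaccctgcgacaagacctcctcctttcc
Rpl7a (chr2:26910792-26910821, plus strand): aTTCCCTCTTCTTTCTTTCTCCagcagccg
Rps10 (chr17:27635230-27635259, minus strand): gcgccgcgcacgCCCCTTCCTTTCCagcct
Rps18 (chr17:33955651-33955680, minus strand): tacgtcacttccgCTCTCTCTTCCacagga
Rps24 (chr14:24490663-24490692, plus strand): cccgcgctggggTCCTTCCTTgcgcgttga
Rps27 (chr3:90213634-90213663, minus strand): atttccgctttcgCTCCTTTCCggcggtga

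The run measured 21 bases in Rpl7a, 13 in Rps10, 11 in Rps18 and 9 in Rps24 and Rps27. These 5 genes had changes over 24 h between -0.29 (Rps10) and 0.16 (Rps27), and none of them was among the 3 that fell. Of 28 ribosomal protein genes with a promoter in the table, 8 had such a run at an annotated start (28.6%), beside 11.8% of 27025 genes. Annotated starts can lie some bases from the base where an mRNA begins. A missing run therefore says only that these letters are not at the annotated base. The printed Rpl13a bases hold a run of C and T just after the annotated start. It was not counted, because the start base is G. In the 300 bases from 250 before to 50 after the start, the letters CTTCCG on either strand, the core read by ETS factors, were found in 19 of 28 ribosomal protein genes (67.9%), beside 18.8% of all genes. AAGATGG, read by YY1, was found in 7 of 28 (25%, beside 7.28%), GGGCGG, read by SP1, in 17 of 28 (60.7%, beside 38.2%) and TATAAA in 4 of 28 (14.3%, beside 15.7%). Among the 3 genes that fell, Rpsa alone held CTTCCG. Its 150 bases before the start (chr9:120127616-120127765, plus strand, RefSeq, GRCm38.p6) hold it at -132 and, on the other strand, at -61, both in capitals and counted from the start.
Rpsa upstream: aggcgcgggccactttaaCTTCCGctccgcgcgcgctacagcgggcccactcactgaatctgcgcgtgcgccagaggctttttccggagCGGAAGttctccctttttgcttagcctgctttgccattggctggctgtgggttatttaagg

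The 11 genes that were too dim to test were Rpl32, Rpl35a, Rpl38, Rpl39, Rps13, Rps14, Rps15 and Rps20, which belong to the core ribosome, and the paralogs Rpl39l, Rps27l and Rps4l. Their signals lay between 3.6 and 102.8. The 8 core genes are therefore read as probe sets with little signal here, not as genes without mRNA. A further 39 probe sets carried several symbols including a ribosomal protein's, often that of a near-identical gene copy, and name no single gene. Of these, 33 were tested, and 3 fell and 0 rose over 24 h, beside 9% and 7.24% of all probe sets. Their median change was -0.21, with -0.20 for the large and -0.21 for the small subunit. At 24 h mutant p300 minus wild-type p300 had a median of 0.22 in them and doxycycline minus wild-type p300 of -0.06.

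Genes with related roles were described in the same way. Of 42 tested genes of ribosome biogenesis, which process rRNA and assemble the subunits, 8 fell and 1 rose over 24 h (19% fell, beside 9% of all probe sets), with a median of -0.20. Nop56, a core protein of the box C/D particles that guide rRNA methylation, had 145.3, 176.9 and 98.8 at 24 h with doxycycline, mutant p300 and wild-type p300, against 319.8, 432.1 and 329.2 at 0 h. The times did not overlap, and its change was -1.39 ± 0.31 (SD, n = 3; adjusted p = 0.000534), larger in size than that of any ribosomal protein gene. Nhp2 (-0.86 ± 0.08) and Gar1 (-0.60 ± 0.16), both of the box H/ACA particles that guide rRNA pseudouridylation, fell too, and so did Fbl, the methyltransferase that works with Nop56. Imp3, of the small subunit processome, rose by 0.38 ± 0.09. At 24 h 0 of the 42 were called between outcomes, and the largest differences were -0.89 in Bysl, 0.70 in Nop56 and 0.63 in Ebna1bp2.

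Of 11 tested genes of RNA polymerases I and III and their factors, which make rRNA and tRNA, Polr3k fell (-0.62 ± 0.20, adjusted p = 0.0291) and the median was 0.03. That is 9.09% that fell, beside 9% of all probe sets. At 24 h 0 were called, with differences of 0.56 in Polr3k, 0.54 in Taf1c and 0.24 in Ubtf. Of 14 tested genes whose mRNAs carry a TOP motif but encode no ribosomal protein, Nap1l1, a histone chaperone, fell by 0.55 on the log2 scale (adjusted p = 0.00639) and Eif4a2, a translation initiation helicase, rose by 0.50 (adjusted p = 0.0171). That is 7.14% that fell, beside 9% of all probe sets that fell and 7.24% that rose. The median of the 14 was -0.18. At 24 h 0 were called, with differences of 0.54 in Hnrnpa1, -0.52 in Eef1b2 and 0.36 in Eif4a2.

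Mitochondrial ribosomal proteins, which build the separate ribosome of that organelle, are encoded in the nucleus. Of 53 tested, 6 fell and 0 rose (11.3% fell, beside 9% of all probe sets), with a median of -0.17. Mrps25 had -0.93 ± 0.26, Mrpl12 -0.82 ± 0.16 and Mrpl51 -0.64 ± 0.17 (SD, n = 3), with adjusted p of 0.00646, 0.0035 and 0.00366. At 24 h 0 were called, with differences of 0.79 in Mrps36, -0.69 in Mrps12 and 0.66 in Mrps25. A list of 9 genes mutated in human Diamond-Blackfan anaemia, which is not complete, had 4 tested genes. Of these Rps19 fell, while Rps10, Rps7 and Rps24 had -0.29, -0.17 and -0.05.

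**Figure D5:**
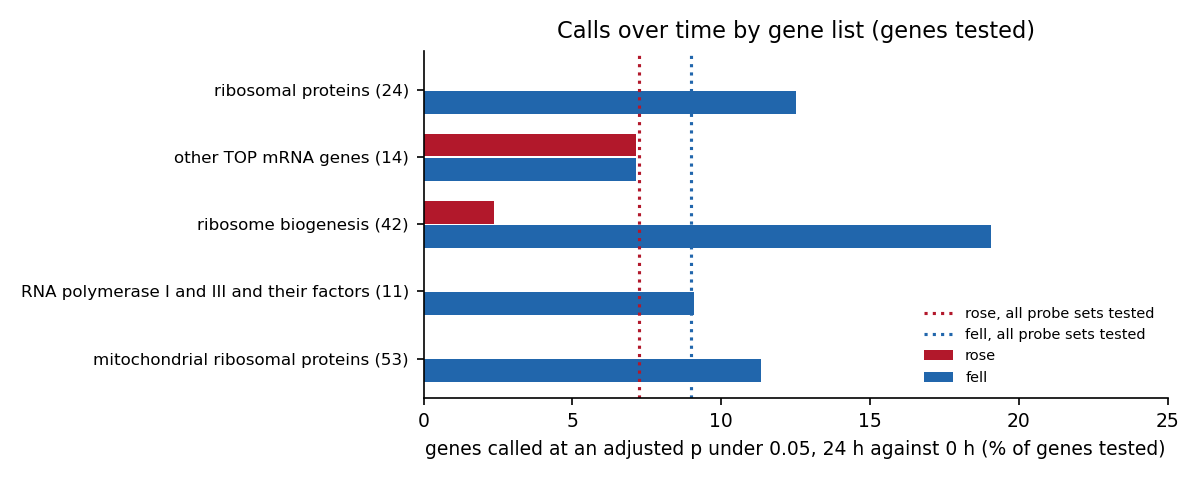
Share of tested genes that rose (red) or fell (blue) over 24 h at a limma adjusted p under 0.05, with the number tested in brackets and dotted lines at the shares for all 6212 probe sets (7.24% rose, 9% fell). Of the 5 lists drawn, ribosome biogenesis has the longest blue bar, at 19%, and 3 of 24 ribosomal protein genes fell.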

How the data were processed

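Total RNA of 6 infected cultures was measured on 1-colour oligonucleotide arrays. The deposited values are linear signal intensity per probe set, made with MAS5 per the submitters' processing notes. No version or setting of MAS5 is recorded in them. Of 12488 probe sets, 66 controls were left out. Values under the 25th percentile (16.4) were raised to that floor, followed by log2. The 6212 probe sets with a mean signal of at least 75.2 went into linear models (R 4.3.3, limma 3.58.1: lmFit, then eBayes with a variance trend, 2-sided), with Benjamini-Hochberg adjustment over all of them and 0.05 as the threshold for a call. For 24 h against 0 h, treatment was a block (2 residual degrees of freedom). The outcome fits at each time took the lone wild-type array to vary like the others (2 residual degrees of freedom). The interaction came from the same fit. The fit over both times had time as a term (3). None of these outcome fits had a treatment block, so the 2 arrays of a treatment were taken as independent. Nothing in the labels says that a treatment at one time was cultured more than once. The p-values therefore reflect the spread among these arrays, which may be technical, and 6 arrays limit the precision.

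The members, the lists and the tests were chosen with earlier results of these data known. Named were all genes called, the 10 largest changes over time, the 5 highest and 5 lowest differences at 24 h, the 3 highest and 3 lowest interactions, the measured stalk proteins and paralogs, and of each other list the 3 largest called changes and the 3 largest differences at 24 h; Fbl, Rps7 and the 5 genes with a start run were added. Symbols came from the platform annotation, and promoters from RefSeq. The fits were tested on simulated data.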

Additional observations from a re-analysis of the deposited data

How the results depend on the processing

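The count of ribosomal protein genes that fell over 24 h (3) became 0 without the filter on dim probe sets, where limma called 0 of 12422 features and 2030 had an unadjusted p under 0.05, and 0 without a variance trend (6.31% of all probe sets fell). It became 5 with scaling to the spike-in controls (Rpl8, Rps10, Rps19, Rps3 and Rpsa; 7.69% of all fell), 6 of 57 with the probe sets of several symbols added, an alternative chosen after seeing the data (9% of all fell), and 0 to 5 when each array was left out in turn. With quantile normalization it stayed at 3, as Rpl13a, Rps3 and Rpsa, and the median change was -0.05. The large minus small subunit median of the change (0.02) was -0.032 with plain probe set names only and -0.026 to 0.086 when each array was left out. With scaling to the spike-in controls 2 genes were lower in dying cells at 24 h (0 before; 6.76% of all probe sets were lower), and the median difference was -0.30 at 24 h, -0.35 in the interaction and -0.12 over both times. All probe sets moved with it, to -0.32, -0.38 and -0.13. Where not stated, the cause was not tested. Of the values of single genes under these alternatives, 535 kept their direction and side of the threshold, 19 lost and 14 gained a call, and 12 that were not called turned sign. The time effect pairs the 2 arrays of each treatment through its treatment block, and no other pairing is given by the labels. Leaving out either array of a treatment therefore removes that treatment from the time effect. The interaction and the fit over both times do not use this pairing. With 1 array each, the spread within a treatment is unknown.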
